A study of Mus musculus with 10 samples.

Results

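Complement is a cascade of plasma proteins that tags cells and particles for removal, and the messenger RNAs of 9 of its components were followed in mouse ovarian tumour samples: the C1q chains C1qa, C1qb and C1qc, the C1 proteases C1ra and C1s1, and C4b, C2, C3 and Cfb. They were chosen by name, and all 9 were found among the 55385 genes of the count table and passed the filter on low counts. The samples came from a tumour line co-mutated in Arid1a and Pik3ca, which the sample titles write APV245 and the design text APC245. A lentiviral short hairpin RNA against Il6 (IL6 shRNA1, genotype label IL6 knockdown) marked 5 libraries, and a non-mammalian hairpin in pLKO.1-puro (control shRNA, genotype label WT) marked the other 5. All 10 libraries share the parental line and its mutations, carry 1 batch label, and the IL6 shRNA1 label stands for a single hairpin in a single line. The study asks how loss of IL6 changes gene expression in this tumour model.

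The sample labels describe untreated tumour cells in DMEM with serum, while the design text describes tumours grown under the skin. Markers of host cells were counted in every library: the 4 defining macrophage genes Adgre1, Csf1r, Mertk and Fcgr1 summed to between 330 and 556 CPM (counts scaled to a common library size) in the libraries labelled IL6 shRNA1, and to between 136 and 320 CPM in control libraries. Of the markers of the tumour type, Wt1 was present at 61.3 to 93.6 CPM in the libraries labelled IL6 shRNA1 and at 63.7 to 121 CPM in control libraries. Pax8, a Mullerian lineage factor, never exceeded 0.11 CPM. Library totals were 17905397 to 19934278 counts under the IL6 shRNA1 label and 18224751 to 22682346 counts in controls. Il6 mRNA was not lower under its own hairpin label: it stood at 1.07, 1.83, 2.18, 1.80 and 1.75 CPM in libraries 1 to 5 labelled IL6 shRNA1, against 1.61, 0.44, 2.06, 1.34 and 0.83 CPM in control libraries 1 to 5. These values came from 9 to 48 counts a library, and an exact two-sided permutation test gave p = 0.2143, where 0.0079 is the smallest it allows. The group name is therefore used as a label only, and each direction given is that of the IL6 shRNA1 label set against control libraries.

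In the classical pathway, C1q binds antibody or altered surfaces, and the proteases C1r and C1s attached to it cleave C4 and C2 to build the enzyme that splits C3. In the alternative pathway, factor B takes the place of C2 and amplifies C3 cleavage. Most plasma complement is made by the liver, whereas C1q comes mainly from macrophages and dendritic cells, and fibroblasts and many tumour cells make C1r, C1s, C3 and C4 locally. In solid tumours C1q is a widely used mark of tissue macrophages. Hepatocyte genes were at or near 0 here: Alb, Apoa1, Ttr, Ahsg and Serpina1a reached at most 4 counts each over the 10 libraries, and Ttr and Ahsg were listed at 0.

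The genes lie in 3 groups on the genome, given in GRCm38 coordinates that are identical in the deposited table and in GENCODE M21. C1qa (ENSMUSG00000036887.5), C1qb (ENSMUSG00000036905.8) and C1qc (ENSMUSG00000036896.5) are neighbours on the minus strand of chromosome 4, at 136895917 to 136898803, 136880129 to 136886187 and 136889804 to 136893065. C1ra (ENSMUSG00000055172.10) is on the plus strand of chromosome 6 at 124512405 to 124523443, and C1s1 (ENSMUSG00000038521.17) is on its minus strand at 124530345 to 124542359. The other 4 genes are on the minus strand of chromosome 17. C4b (ENSMUSG00000073418.4) lies at 34728380 to 34743882, Cfb (ENSMUSG00000090231.10) at 34856374 to 34862518, C2 (ENSMUSG00000024371.14) at 34862604 to 34898265 and C3 (ENSMUSG00000024164.15) at 57203970 to 57228136. Cfb and C2 are separated by 85 bases.

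RefSeq promoter windows of GRCm38.p6, 250 bases before to 50 after a start, were found for 5 of the 9 genes (C1qb, C1qc, C1ra, C1s1 and C3), and none was listed for C1qa, C2, C4b and Cfb. The sequences below are the parts upstream of the annotated transcripts for 2 C1q chains, whose levels moved together, and for C3 and C1s1, whose levels were not called. They are written 5′ to 3′ on the gene's strand, and capitals mark matches to the motifs listed after them, on either strand.
C1qb promoter, chr4:136886201-136886450, minus strand: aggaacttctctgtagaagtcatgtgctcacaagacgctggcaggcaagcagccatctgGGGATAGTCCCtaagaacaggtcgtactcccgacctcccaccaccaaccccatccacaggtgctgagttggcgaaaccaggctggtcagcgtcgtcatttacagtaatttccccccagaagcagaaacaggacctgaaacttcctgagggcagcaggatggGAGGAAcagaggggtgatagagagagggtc
C1qc promoter, chr4:136893066-136893164, minus strand: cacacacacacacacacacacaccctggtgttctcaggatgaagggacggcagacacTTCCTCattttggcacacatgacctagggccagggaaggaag
C1s1 promoter, chr6:124542360-124542609, minus strand: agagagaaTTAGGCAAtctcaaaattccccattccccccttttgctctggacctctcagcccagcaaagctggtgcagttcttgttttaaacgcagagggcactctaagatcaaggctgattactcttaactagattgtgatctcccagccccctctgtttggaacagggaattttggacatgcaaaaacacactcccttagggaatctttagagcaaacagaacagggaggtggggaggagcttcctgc
C3 promoter, chr17:57228137-57228386, minus strand: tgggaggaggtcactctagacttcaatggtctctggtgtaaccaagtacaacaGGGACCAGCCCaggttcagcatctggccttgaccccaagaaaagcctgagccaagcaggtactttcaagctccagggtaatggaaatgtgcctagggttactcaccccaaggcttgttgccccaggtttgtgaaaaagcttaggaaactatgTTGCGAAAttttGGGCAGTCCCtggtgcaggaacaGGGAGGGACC

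Motifs were searched on both strands of each 300-base window, and positions count from the RefSeq start, with no base 0. A PU.1 core, GAGGAA, was found in the C1qb window at -30 to -25 and, on the other strand, in the C1qc window at -193 to -188. PU.1 is a transcription factor of myeloid cells, and this short core occurs in 28.3% of all 32851 windows. The C3 window held a C/EBP pattern, TTGCNNAA, at -45 to -38. C1s1 has 2 windows with different starts, and its window 1 held the pattern on the opposite strand at -242 to -235. C/EBP factors act in acute-phase transcription, and 10.8% of windows hold the pattern. The NF-kB pattern, GGG and CC around 5 unspecified bases, which is nearly symmetric and so can match both strands at almost the same place, occurred in the C3 window at -197 to -187, -33 to -24 and -10 to -1. In the C1qb window it covered -191 to -181, and in the C1qc window -41 to -31, within the annotated transcript and not shown. For C1s1 the same match lay at 4 to 13 in window 1 and at -35 to -26 in window 2. The NF-kB pattern is present in 50.8% of all windows. A STAT element, TTCNNNGAA, the pattern bound downstream of IL-6 receptors, was found in the C1ra window at 33 to 41, inside the transcript, beside 8.3% of all windows, with a C/EBP pattern at 17 to 24 and a PU.1 core at 45 to 50 on the other strand. The interferon element, GAAA and GAAA around 2 unspecified bases, held by 3.44% of windows, was found in none of the 6 windows of these genes. A match is only a run of letters, and no binding was measured.

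Per length of transcript, the C1q chains were the most abundant of the 9 components. Averaged over the 10 libraries, the deposited FPKM values (fragments scaled to transcript length and library total) were 326 for C1qa, 270 for C1qb and 123 for C1qc. C1s1 followed at 50.4 FPKM and C1ra at 29.9 FPKM, then C3 at 22.8, C4b at 7.01, C2 at 2.84 and Cfb at 0.93 FPKM. C1qa exceeded C1qb, and C1qb exceeded C1qc, in 10 of 10 libraries, so their order held within each sample. C1qc exceeded C1s1 in 8 libraries, C1ra exceeded C3 in 7 and C4b exceeded C2 in 9, and these neighbours cannot be ordered in every sample. C1q mRNA made up 84.8, 90.7, 92.2, 90.4 and 87.9% of the summed FPKM of the 9 genes in libraries 1 to 5 labelled IL6 shRNA1, against 81.1, 72.6, 85.5, 79.4 and 71.7% in control libraries 1 to 5.

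The levels of C2 and Cfb at the end of that order, and their order with each other, depend on the gene models. A readthrough gene, Gm20547, spans both on the same strand and was listed at 0 counts in every library. It covers 2246 of the 2825 exonic bases of Cfb (79.5%) and 1656 of the 3872 of C2, and how the authors' counting treated fragments in shared exons is not given in the sources used here. Scaled only to the bases that no same-strand gene shares, C2 averaged 4.96 FPKM over 2216 bases and Cfb 4.53 FPKM over 579 bases. Those averages stayed below the 7.01 FPKM of C4b but lie close together, so the order of C2 and Cfb is not set by these data. The order of C4b and C2 within a library also depends on the gene model. In library 1 labelled IL6 shRNA1, C4b stood at 3.16 FPKM and C2 at 2.61 FPKM as deposited. The lowest C2 value under that label was 3.85 FPKM when scaled to unshared bases. A further 161 exonic bases of C2 overlap Zbtb12 on the opposite strand, and 576 of the 3129 of C1s1 overlap the antisense gene Gm16567, which had 0 counts.

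**Figure D1:**
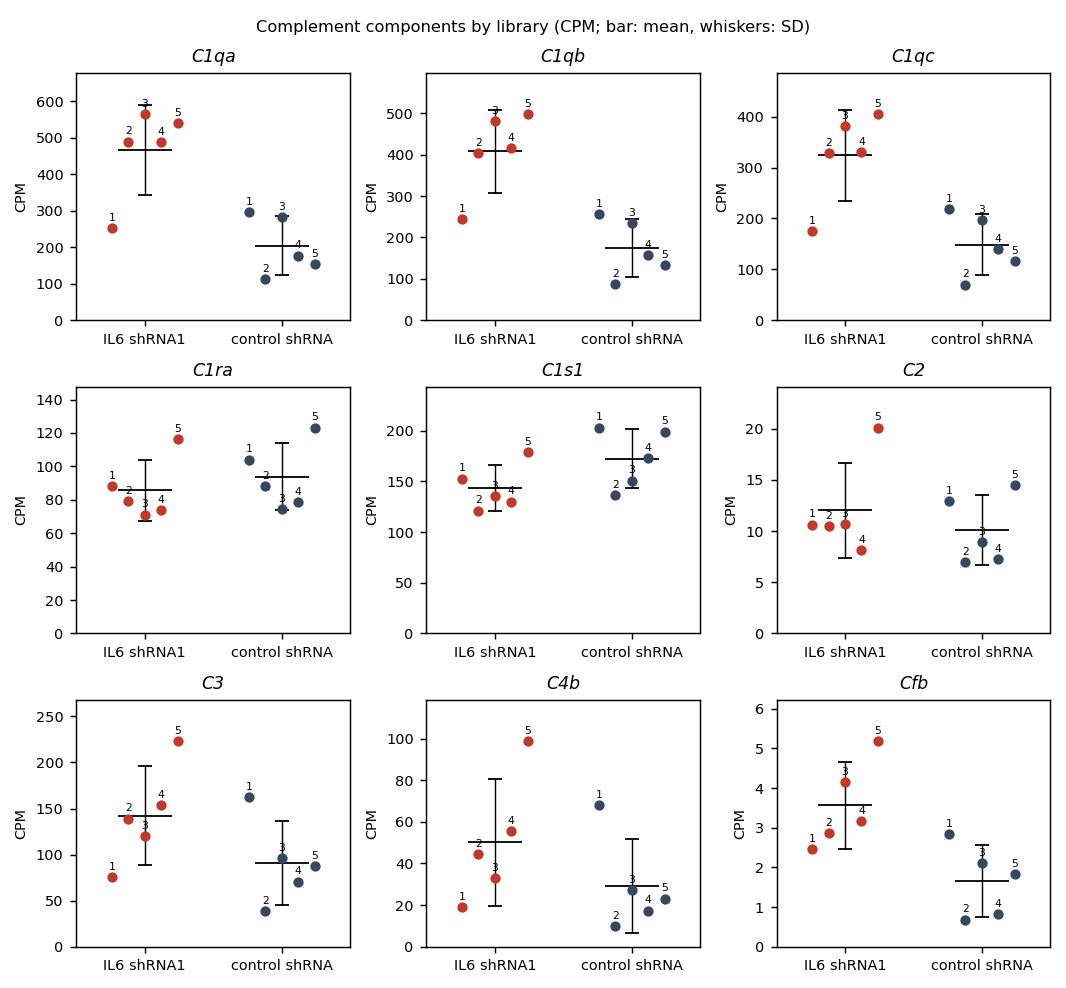
Library-size-scaled counts (CPM, vertical axes starting at 0) of the 9 components in each library, with the library number above its point, the group mean as a bar and the SD as whiskers. C1qa, C1qb and C1qc in libraries 2 to 5 labelled IL6 shRNA1 lie above all 5 control libraries, and library 1 lies among the controls.

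The C1q chains rose in the libraries labelled IL6 shRNA1 and were the only components among the 9 that passed the test: 3 were called higher, 0 lower and 6 were not called at an adjusted p under 0.05 (edgeR quasi-likelihood test, Benjamini-Hochberg adjustment over 15064 genes). Over all genes tested, 11.8% were called, 5.62% higher and 6.16% lower. C1q is a hexamer of subunits that each join an A, a B and a C chain, so all of these genes are needed for the protein. The median log2 fold change was 1.19 over the C1q chains, 0.45 over the other 6 components and -0.01 over all genes tested.

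C1qa, the A chain, stood at 251.7, 490, 565, 488 and 540 CPM in libraries 1 to 5 labelled IL6 shRNA1, against 296, 112, 283, 177 and 154 CPM in control libraries 1 to 5. Library 1 labelled IL6 shRNA1 lay below control libraries 1 and 3, and the other 4 lay above every control, so the groups overlapped by that library. Its mean was 467 ± 125 CPM in the libraries labelled IL6 shRNA1 and 204 ± 81.2 CPM in control libraries (SD, n = 5 each), a 2.28-fold difference with a 95% interval of 1.44 to 3.63 and an edgeR adjusted p of 0.0328. C1qb, the B chain, stood at 244, 405, 481, 416 and 498 CPM under the IL6 shRNA1 label, against 256, 87.0, 234, 157 and 134 CPM in controls. Here library 1 labelled IL6 shRNA1 fell short of control library 1 alone. C1qb averaged 409 ± 101 CPM under the IL6 shRNA1 label and 174 ± 70.3 CPM in controls, 2.35-fold apart (1.49 to 3.72; edgeR adjusted p = 0.0281).

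C1qc, the C chain, stood at 175, 328, 381, 331 and 405 CPM under the IL6 shRNA1 label, against 218, 69.9, 197, 140 and 116 CPM in controls. The pattern over libraries was that of C1qa, with library 1 labelled IL6 shRNA1 below control libraries 1 and 3. C1qc averaged 324 ± 89.5 CPM under the IL6 shRNA1 label and 148 ± 60.0 CPM in controls, 2.19-fold apart (1.35 to 3.55; edgeR adjusted p = 0.0459). In bulk RNA, more cells of a type and more RNA per cell cannot be told apart. None of the 9 components had groups that did not overlap, whereas 10.9% of all genes tested did.

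The C1q calls rest on individual libraries. All 3 passed without library 1 labelled IL6 shRNA1 and without control library 1, C1qa and C1qb passed without control library 3, and C1qb alone passed without control library 2. Without any of libraries 2 to 5 labelled IL6 shRNA1, or without control library 4 or 5, none passed. Across these 10 refits the log2 fold change of C1qa lay between 1.05 and 1.38 (adjusted p 0.0130 to 0.0812), that of C1qb between 1.08 and 1.43 (0.0152 to 0.0722) and that of C1qc between 0.96 and 1.32 (0.0203 to 0.108). Without the 3 libraries farthest out on the first principal component (library 5 labelled IL6 shRNA1 and control libraries 2 and 5), the log2 fold changes were 0.83, 0.84 and 0.72 for C1qa, C1qb and C1qc, with adjusted p of 0.211, 0.146 and 0.235.

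**Figure D2:**
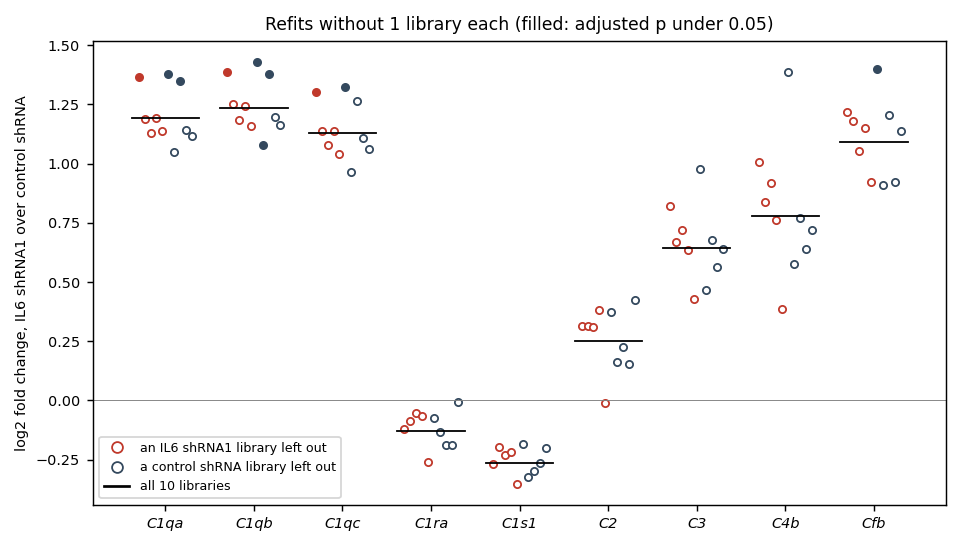
Log2 fold change (IL6 shRNA1 over control shRNA) of the 9 components with 1 library left out at a time; red circles leave out a library labelled IL6 shRNA1, dark circles a control library, filled circles have an adjusted p under 0.05 and black bars show the fit with all 10 libraries. The C1q chains stay above 0.96 in all 10 refits while most circles are open, and C2 crosses 0.

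Within each library the C1q chains kept nearly fixed proportions. The ratio of C1qa to C1qb in FPKM lay between 1.08 and 1.27 in the libraries labelled IL6 shRNA1 and between 1.18 and 1.35 in controls, while C1qa itself varied 5.04-fold between the highest and the lowest library. The ratio of C1qc to C1qb was 0.405 to 0.458 under the IL6 shRNA1 label and 0.453 to 0.503 in controls. Likeness of profiles was measured as the root mean square difference of log2 CPM after each gene was centred on its own mean over the 10 libraries, where 0 is an identical profile. By this measure C1qa differed from C1qb by 0.08 and from C1qc by 0.10, and C1qb from C1qc by 0.08.

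Macrophage markers moved with C1q. Of 15 macrophage genes, with the C1q genes left out, 11 were called higher and 0 lower, beside 5.62% and 6.16% of all genes tested. All 15 had positive log2 fold changes, with a median of 1.12. The 4 not called were Aif1, Fcgr1, Cd68 and Cd163, with edgeR adjusted p of 0.0545, 0.0791, 0.0806 and 0.158. Adgre1, the F4/80 antigen, rose 2.22-fold to 109 ± 21.5 CPM under the IL6 shRNA1 label, against 49.1 ± 20.6 CPM in controls (edgeR adjusted p = 0.0372). Csf1r, the receptor for the macrophage growth factor CSF-1, rose 1.82-fold to 276 ± 46.2 CPM, against 151 ± 44.5 CPM in controls (adjusted p = 0.0247). The summed markers came to 1669, 2261, 2383, 2498 and 2618 CPM in libraries 1 to 5 labelled IL6 shRNA1, against 1538, 685, 1452, 1211 and 983 CPM in control libraries 1 to 5, and the groups did not overlap. The sum of the C1q chains was 0.517 ± 0.0746 of this marker sum in the libraries labelled IL6 shRNA1 and 0.437 ± 0.0540 of it in controls (SD, n = 5 each), and these ratios overlapped between groups. With the mean macrophage profile as a covariate, the log2 fold changes of C1qa, C1qb and C1qc were 0.049, 0.078 and -0.12, with edgeR adjusted p of 0.961, 0.918 and 0.883. That profile did not overlap between the groups (0.054 to 0.883 under the IL6 shRNA1 label, -1.27 to -0.0066 in controls). This fit therefore cannot separate the profile from the label, and over all genes its calls fell to 19 higher and 12 lower. Dendritic cells also make C1q, and of their 5 markers 0 were called, but 4 had positive log2 fold changes and the median was 0.93. Their sum was 8.18 to 20.3 CPM under the IL6 shRNA1 label and 7.26 to 16.2 CPM in controls. Of 6 T cell markers 0 were called and 6 had positive log2 fold changes, with a median of 1.01 and sums of 21.6 to 48.2 CPM under the IL6 shRNA1 label and 9.54 to 26.4 CPM in controls. The part of these cell types in the C1q values was not tested.

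The genes most like the mean C1q profile, among 10912 genes of at least 5 CPM on average, included Ctsh (a difference of 0.07), Cd300c2 (0.10), Fcer1g (0.11) and Tmem51 (0.11), over 10 libraries. The centred macrophage marker profile itself differed from the C1q mean by 0.19. Ctsh, the lysosomal protease cathepsin H, stood at 144 CPM on average in the libraries labelled IL6 shRNA1 and at 63.3 CPM in controls. Fcer1g, the signalling chain of Fc receptors, stood at 103 CPM under the IL6 shRNA1 label and at 44.0 CPM in controls. Such genes were picked for likeness to C1q over the same 10 libraries, so a similar group difference follows largely from the choice.

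**Figure D3:**
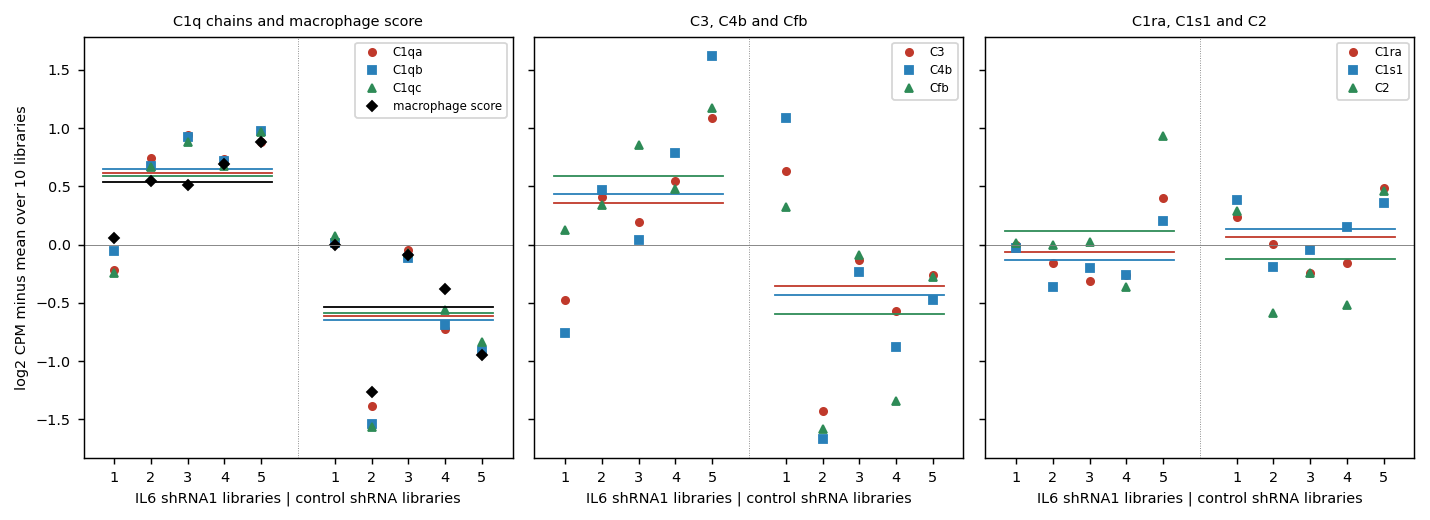
Log2 CPM of each gene minus its mean over 10 libraries, with libraries 1 to 5 labelled IL6 shRNA1 left of the dotted line and control libraries right of it; symbols are genes, black diamonds the mean of 15 macrophage markers, and horizontal lines group means. The C1q chains lie close to the macrophage score, C3, C4b and Cfb peak in library 5 labelled IL6 shRNA1, and C1ra, C1s1 and C2 have group means near 0.

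The genes of the C1 proteases, which bind C1q as proteins, were not called. C1ra, the protease that activates C1s, stood at 88.2, 79.2, 71.1, 73.7 and 116 CPM in libraries 1 to 5 labelled IL6 shRNA1, against 104, 88.4, 74.6, 78.8 and 123 CPM in control libraries 1 to 5. The groups overlapped throughout, with library 5 the highest of each. C1ra averaged 85.7 ± 18.2 CPM under the IL6 shRNA1 label and 93.8 ± 19.9 CPM in controls, with a log2 fold change of -0.13 ± 0.17 (SE; 95% interval -0.50 to 0.24) and an edgeR adjusted p of 0.634. C1s1, the protease that cleaves C4 and C2, stood at 153, 121, 135, 130 and 179 CPM under the IL6 shRNA1 label, against 203, 137, 151, 173 and 199 CPM in controls. Control libraries 1 and 5 were the highest, and the other libraries of the groups interleaved. C1s1 averaged 144 ± 22.8 CPM under the IL6 shRNA1 label and 172 ± 29.2 CPM in controls (log2 fold change -0.26 ± 0.13, interval -0.56 to 0.03, edgeR adjusted p = 0.200).

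The protease genes varied little, by 1.73-fold for C1ra and 1.68-fold for C1s1 between the highest and the lowest library, and their centred profiles differed from each other by 0.17. Each differed from the C1q mean by 0.89. C1s1 amounted to 5.21 to 9.15% of the macrophage marker sum in the libraries labelled IL6 shRNA1 and to 10.4 to 20.3% in controls. These percentages did not overlap, but neither did the marker sum they are taken of, whereas the CPM of C1s1 overlapped. C1ra amounted to 2.95 to 5.28% of that sum under the IL6 shRNA1 label and to 5.13 to 12.9% in controls, which overlapped. Of the C1q sum, C1s1 amounted to 9.49 to 22.8% under the IL6 shRNA1 label and to 21.1 to 50.8% in controls, and C1ra to 4.99 to 13.2% under the IL6 shRNA1 label and to 10.4 to 32.9% in controls, with overlap for both. Both genes lie on chromosome 6, where the median log2 fold change of 797 tested genes was -0.23 and 27.1% were called lower, and the part of this in their values was not tested. Among fibroblast markers, 2 of 6 were called lower (Dcn and Lum, log2 fold changes -0.62 and -0.97) and 0 higher. Over all genes tested, 6.16% were called lower and 5.62% higher. The fibroblast list summed to 35432 to 66601 CPM under the IL6 shRNA1 label and to 35601 to 86796 CPM in controls, and its part in the protease values was not tested. Counts that belong to the near-identical copies C1rb and C1s2 could have been assigned either way. These copies had 110 and 345 counts over the 10 libraries, against 17870 for C1ra and 31640 for C1s1.

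C4b and C2 supply the subunits of the classical C3 convertase, and neither was called. C4b, the thioester protein that C1s cleaves, stood at 18.97, 44.6, 33.0, 55.5 and 98.8 CPM in libraries 1 to 5 labelled IL6 shRNA1, against 68.1, 10.0, 27.3, 17.4 and 23.1 CPM in control libraries 1 to 5. Control library 1 exceeded 4 of the 5 libraries labelled IL6 shRNA1, and the 9.85-fold range between libraries was the widest of the 9 genes. C4b averaged 50.2 ± 30.4 CPM under the IL6 shRNA1 label and 29.2 ± 22.7 CPM in controls (log2 fold change 0.78 ± 0.54, interval -0.44 to 1.99, edgeR adjusted p = 0.362). Without control library 1 its log2 fold change was 1.39, and without library 5 labelled IL6 shRNA1 it was 0.38. Its close copy C4a had 92 counts over the 10 libraries, against 8041 for C4b, and reads shared by the copies could have been assigned to either.

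C2, the protease subunit of that convertase, stood at 10.6, 10.5, 10.7, 8.13 and 20.1 CPM under the IL6 shRNA1 label, against 12.9, 6.96, 8.89, 7.29 and 14.5 CPM in controls. Library 5 labelled IL6 shRNA1 stood apart from the other 4, which lay within the control range. C2 averaged 12.02 ± 4.65 CPM under the IL6 shRNA1 label and 10.1 ± 3.40 CPM in controls (log2 fold change 0.25 ± 0.28, interval -0.36 to 0.86, edgeR adjusted p = 0.575). Without library 5 labelled IL6 shRNA1 the log2 fold change was -0.01. The profile of C2 was nearer to C1ra (a difference of 0.30) than to the C1q mean (0.72).

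C3, the central protein on which all routes converge, was not called either. It stood at 75.7, 139, 120, 154 and 223 CPM in libraries 1 to 5 labelled IL6 shRNA1, against 163, 38.9, 95.9, 70.7 and 87.4 CPM in control libraries 1 to 5. Library 5 labelled IL6 shRNA1 was the highest and control library 1 came next, above 4 libraries labelled IL6 shRNA1. C3 averaged 142 ± 53.9 CPM under the IL6 shRNA1 label and 91.1 ± 45.6 CPM in controls (log2 fold change 0.64 ± 0.37, interval -0.18 to 1.47, edgeR adjusted p = 0.264). The 10 libraries had the same order for C3 and C4b, and the centred profiles differed by 0.29, while C3 differed from the C1q mean by 0.39. The ratio of C4b to C3 in FPKM was 0.226 to 0.400 in the libraries labelled IL6 shRNA1 and 0.222 to 0.378 in controls.

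The genes most like C3 were Wdfy4 (0.16), Tap1 (0.20), H2-T23 (0.21), Tap2 (0.21) and Sema4a (0.22). Tap1 and Tap2 encode the peptide transporter of antigen presentation, and H2-T23 is a non-classical MHC class I gene. Tap1 stood at 227 CPM on average in the libraries labelled IL6 shRNA1 and at 150 CPM in controls, with an edgeR adjusted p of 0.229. None of these 5 genes was called. They were picked for likeness to C3 over the same 10 libraries, so a group difference like that of C3 follows largely from the choice.

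Cfb, the serine protease of the alternative pathway convertase, had the highest log2 fold change of the 6 components outside C1q, on only 14 to 98 counts a library, and was not called. It stood at 2.46, 2.87, 4.15, 3.16 and 5.19 CPM under the IL6 shRNA1 label, against 2.84, 0.68, 2.10, 0.83 and 1.84 CPM in controls. Control library 1 lay above library 1 labelled IL6 shRNA1 and just below library 2, so the groups overlapped at that edge. Cfb averaged 3.56 ± 1.10 CPM under the IL6 shRNA1 label and 1.66 ± 0.91 CPM in controls (log2 fold change 1.09 ± 0.38, interval 0.26 to 1.92), and edgeR's adjusted p was 0.0807. It passed without control library 1 (adjusted p = 0.0392) and with DESeq2 (0.0309). Its profile differed from the C1q mean by 0.36 and from C3 by 0.39.

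**Figure D4:**
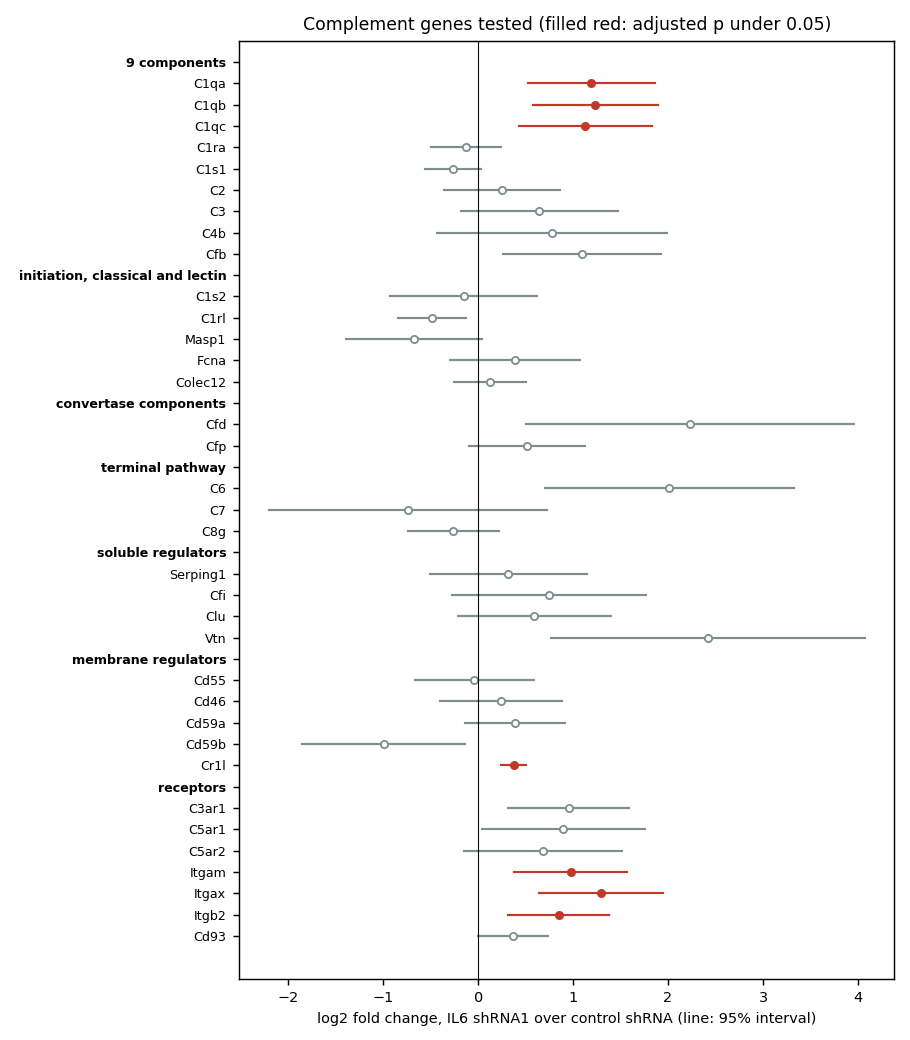
Log2 fold change (IL6 shRNA1 over control shRNA, horizontal axis) of the 9 components and of other complement genes tested, grouped by role, with 95% intervals; filled red circles have an adjusted p under 0.05. The called genes drawn are the C1q chains, Cr1l, Itgam, Itgax and Itgb2, and every one lies right of 0.

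Beyond the 9 components, 47 other complement genes were listed by role, and 27 passed the filter on low counts. Of these 27, 5 were called higher and 0 lower (beside 5.62% and 6.16% of all genes), 20 had positive log2 fold changes, and the median was 0.39. Mbl1, Colec10, C8a, C8b, C4bp and Vsig4 were listed at 0 in every library. Many of the untested genes encode proteins made by the liver, such as the mannose-binding lectins (Mbl1 and Mbl2) and the terminal components C8a, C8b and C9.

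Receptors for complement fragments rose in part. Of 9 listed, 7 were tested and 3 were called higher, beside 5.62% of all genes tested. All 7 had positive log2 fold changes with a median of 0.90. Itgax, the alpha chain of complement receptor 4, stood at 74.4, 103, 88.01, 75.7 and 147 CPM in libraries 1 to 5 labelled IL6 shRNA1, against 58.7, 19.9, 51.2, 37.4 and 31.7 CPM in control libraries 1 to 5. Its groups did not overlap, as was so for 10.9% of all genes tested, and the difference was 2.45-fold (edgeR adjusted p = 0.0232). Itgam, the alpha chain of complement receptor 3, averaged 18.7 ± 4.89 CPM under the IL6 shRNA1 label and 9.48 ± 3.47 CPM in controls, without overlap (1.96-fold, adjusted p = 0.0429). Itgb2, the beta chain they share, averaged 96.4 ± 19.5 CPM under the IL6 shRNA1 label and 53.5 ± 19.4 CPM in controls, with overlapping groups (1.80-fold, adjusted p = 0.0463). These integrins are carried by macrophages and other leukocytes, and the macrophage marker sum moved the same way. Of 5 neutrophil markers 4 were tested and 0 called, with a median log2 fold change of 0.19. The neutrophil sums overlapped, at 35.2 to 55.9 CPM under the IL6 shRNA1 label and 17.4 to 56.0 CPM in controls. The part of these cell types in the integrin values was not tested. With the macrophage profile as a covariate the log2 fold changes of Itgam, Itgax and Itgb2 were -0.0048, 0.24 and -0.081, none called. That profile did not overlap between the groups, so this fit cannot separate it from the label. Leaving out 1 library at a time ended the call of Itgam in 7 of 10 refits, of Itgb2 in 8 and of Itgax in 2, with adjusted p up to 0.0958, 0.107 and 0.0629. The anaphylatoxin receptors C3ar1 and C5ar1 had log2 fold changes of 0.95 and 0.90 with edgeR adjusted p of 0.0573 and 0.146.

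Of the 5 membrane regulators tested, 1 was called higher and 0 lower, and their median log2 fold change was 0.24. Cr1l, the rodent membrane regulator Crry, which blocks C3 and C4 deposition on the body's own cells, stood at 83.6, 71.6, 75.7, 76.5 and 82.9 CPM under the IL6 shRNA1 label, against 61.2, 60.8, 57.5, 60.4 and 61.0 CPM in controls. The control libraries lay within a narrow band, and the groups did not overlap, as was so for 10.9% of all genes tested. Cr1l averaged 78.0 ± 5.10 CPM under the IL6 shRNA1 label and 60.2 ± 1.53 CPM in controls (1.30-fold, edgeR adjusted p = 0.00466). Cr1l remained called in all 10 refits that left out 1 library, but not without the 3 libraries farthest on the first principal component (adjusted p = 0.0692).

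Cr1l lies on chromosome 1, where the median log2 fold change of 917 tested genes was 0.32 and 29.2% were called higher, beside 5.62% of all genes. Its own log2 fold change was 0.37 ± 0.06, and the part of the chromosome-wide shift in it was not tested. Cd55, decay accelerating factor, on the same chromosome, had a log2 fold change of -0.04 ± 0.28 and an edgeR adjusted p of 0.943. It stood at 101, 55.8, 49.5, 37.2 and 60.2 CPM under the IL6 shRNA1 label, against 50.03, 88.3, 48.2, 47.0 and 78.4 CPM in controls. C1qa, C1qb and C1qc are on chromosome 4 and the C2, Cfb, C4b and C3 genes on chromosome 17, whose medians were -0.015 and -0.016.

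**Figure D5:**
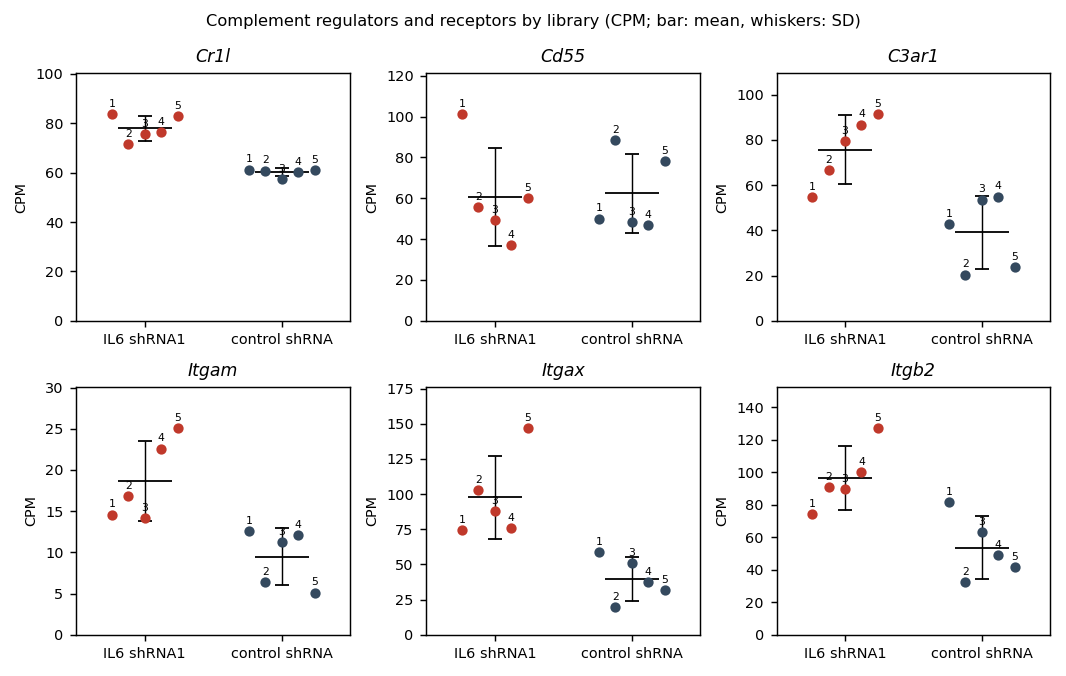
CPM (vertical axes starting at 0) of Cr1l, Cd55, C3ar1, Itgam, Itgax and Itgb2 in each library, with the library number above its point, the mean as a bar and the SD as whiskers. Every library labelled IL6 shRNA1 lies above every control for Cr1l, Itgam and Itgax, with overlap for C3ar1, Itgb2 and Cd55.

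Further regulators and enzymes were measured without a call. Serping1, the C1 inhibitor that removes C1r and C1s from C1q, averaged 115 ± 49.5 CPM under the IL6 shRNA1 label and 91.7 ± 46.2 CPM in controls (adjusted p = 0.597). Clu, clusterin, which binds terminal complexes, averaged 152 ± 52.2 CPM under the IL6 shRNA1 label and 101 ± 48.6 CPM in controls (adjusted p = 0.291). Cfd, factor D, the protease that cleaves factor B and is abundant in fat, stood at 2.24, 6.62, 4.70, 16.9 and 25.7 CPM under the IL6 shRNA1 label, against 5.39, 3.51, 1.25, 0.47 and 1.25 CPM in controls. Libraries 4 and 5 labelled IL6 shRNA1 were the highest, and the log2 fold change was 2.23 ± 0.77 (edgeR adjusted p = 0.0865). Adipocyte markers summed to 7.21 to 45.9 CPM under the IL6 shRNA1 label and to 10.3 to 18.5 CPM in controls, and their part in Cfd was not tested. Library 5 labelled IL6 shRNA1 had the highest sum of skeletal muscle markers, 6990 CPM, in a list that ranged from 23.5 CPM upwards under that label and from 9.67 to 763 CPM in controls. The part of the muscle markers in C1qb, C1qc, Cfd, C2, C3, C4b and Cfb, all highest in the same library, was not tested. That library also had the highest macrophage marker sum, 2618 CPM. The calls of all 3 C1q chains were lost without it, as they were without library 2, 3 or 4 labelled IL6 shRNA1 or control library 4 or 5. Cfp, properdin, which stabilises the alternative convertase, had a log2 fold change of 0.51 ± 0.28 (adjusted p = 0.232). C1rl, a C1r-like protease gene on chromosome 6, had a log2 fold change of -0.49 ± 0.16 and an adjusted p of 0.0734.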

How the data were processed

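RNA from 5 libraries labelled IL6 shRNA1 and 5 labelled control shRNA was sequenced, after RNeasy extraction and NEBNext Ultra II library preparation per the labels' protocols. The submitters' processing notes name featureCounts and Subread 1.6.4, STAR 2.7.0f, Trim Galore 0.6.6, FastQC 0.11.9, SAMtools 1.11, R 4.0.4 and the builds mm10 and GRCm38. Strand setting, annotation release, the rule for reads in shared exons and the FPKM tool were not given in the sources used here. Raw counts per gene were deposited by the authors, with an FPKM table of the same 55385 genes. The deposited FPKM equal the counts over gene length and column total (relative deviation at most 9.4e-07).

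Counts were fitted in R 4.3.3 with edgeR 4.0.16 (filterByExpr by group with a minimum count of 10, TMM factors, robust quasi-likelihood test), and p-values were adjusted by the Benjamini-Hochberg method over 15064 genes. CPM values are counts scaled by TMM library size. Intervals are 95% intervals from the fit, and the SE is the log2 fold change over the root of the F statistic. Alternatives were DESeq2 1.42.0, limma 3.58.1 with voom or on log2(FPKM + pseudocount) with pseudocounts of 1 and 0.1, other scaling and filters, a replicate block, a macrophage covariate and the omission of libraries. Nothing states that the replicates came from separate animals or cultures, so p-values measure the spread between these libraries only. The genes, lists and named-gene rule (all 9 components, and up to 4 called genes of each list) were chosen with earlier results of these data known. Cfd, C1rl and the other uncalled genes named were picked after their values were seen. Genes that the rule takes but that are not named are not reported here. The fit was tested on simulated data. Python 3.11.15 with pandas 2.3.3 made the summaries.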

Additional observations from a re-analysis of the deposited data

Results flagged for a closer look

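Lone libraries were looked for within each group of 5 by Dixon's test (critical value 0.71) for 15 genes, 30 groups in all, and 3 were found, where chance gives about 1 in 20 groups. C1qa was lowest in library 1 labelled IL6 shRNA1, at 251.7 CPM, far from the other 4 of its group. C2 was highest in library 5 labelled IL6 shRNA1, at 20.1 CPM, apart from the other 4. Cr1l was lowest in control library 3, at 57.5 CPM, in a group that otherwise lay between 60.4 and 61.2 CPM.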

How the results depend on the processing

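C1ra, C1s1 and Cfb kept the sign of their log2 fold change under all alternatives run, and C1qa and C1qb did too, although their calls did not hold throughout. With total counts alone as the scale, C1qa had a log2 fold change of 1.18 and C1qc of 1.12 (adjusted p 0.0532 and 0.0700), leaving 1 C1q gene (C1qb), 1 of the 9 components and 3 other complement genes called higher, and 553 genes overall. With upper quartile factors C1qc had 1.13 (0.0501), and 0 other complement genes were called lower. On log2(FPKM + 1) and log2(FPKM + 0.1) C1qc had 1.17 (0.0573) and 1.19 (0.0509), and on these FPKM scales 1 other complement gene was called lower (C1rl). With no filter on low counts C1qa, C1qb and C1qc had 1.21, 1.25 and 1.15 (0.102, 0.0895 and 0.133), 0 of the 9 and 2 other complement genes (Cr1l among them) were called higher, and 583 genes overall lower. At an adjusted p under 0.01 the values 1.19, 1.23 and 1.13 were no longer called, and 0 of the 9, 1 other complement gene (Cr1l) and 187 genes higher and 194 lower remained. DESeq2 called Cfb (1.12), 9 other complement genes higher and 1 lower (C1rl), and 1653 genes higher. With the macrophage profile as a covariate, C1qa, C1qb and C1qc had 0.049, 0.078 and -0.12, and the signs of C2 (-0.093), C3 (-0.71), C4b (-1.18), Itgam (-0.0048), Itgb2 (-0.081) and Il6 (-0.86) turned, with 0 components, 0 other complement genes and 19 genes higher and 12 lower called. The profile did not overlap between the groups, so the fit with this covariate cannot separate it from the label. Without the 3 libraries farthest on the first principal component C1qa, C1qb and C1qc had 0.83, 0.84 and 0.72, with 0 components, 0 other complement genes, and 130 genes higher and 82 lower. The sample numbers were not shown to pair the libraries, since deviations of same-numbered libraries correlated between -0.28 and 0.27. With the replicate block C1qa, C1qb and C1qc had 1.25, 1.31 and 1.19 (0.102, 0.0883 and 0.120), with 0 components, 1 other complement gene (Cr1l), and 349 genes higher and 406 lower. The cause of these changes was not tested.

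Leaving out 1 library at a time gave log2 fold changes of 1.05 to 1.38 for C1qa, 1.08 to 1.43 for C1qb and 0.96 to 1.32 for C1qc, -0.26 to -0.0047 for C1ra, -0.35 to -0.19 for C1s1, -0.0096 to 0.42 for C2, 0.43 to 0.98 for C3, 0.38 to 1.39 for C4b and 0.91 to 1.40 for Cfb. Called higher were 0 to 4 of the 9 components, 0 to 3 C1q genes and 2 to 10 other complement genes, and 0 to 1 of the last were called lower. Over all genes 415 to 1445 were called higher and 415 to 1329 lower. Depth limits the precision of genes with few counts, such as Cfb with 14 to 98 counts a library and Il6 with 9 to 48.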
